A study of Mus musculus with 4 samples.

Results

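Sinusoidal endothelial cells of the femoral epiphysis (the growing end of the femur) were taken from the day-10 and day-12 libraries by a rule on their counts, and 86 cells met it. They were 21 of 10028 cells kept on day 10 and 65 of 16254 on day 12, out of 49055 cells kept in the whole series. A member had UMIs (unique molecular identifiers, which count captured RNA molecules) of at least 3 of 7 pan-endothelial genes, Pecam1, Cdh5, Kdr, Flt1, Emcn, Egfl7 and Plvap. It also had at least 1 UMI of Stab2, no UMI of the leukocyte gene Ptprc, and under 3% of its UMIs from 5 cartilage genes, Col2a1, Col9a1, Col9a2, Col9a3 and Acan. The rule used measured values, so the levels of these genes in the members are a description.

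All libraries were made from wild-type mice aged 7, 8, 10 or 12 days, with no treatment named and 1 droplet 3' RNA library per age. The labels state neither the strain and sex nor how many animals gave a library. Replicate libraries of an age were not analysed here, so a day and its library cannot be told apart. Endothelial cells of the same 2 libraries without a Stab2 UMI were the comparison, as 155 cells of an arterial gate (UMIs of at least 2 of Gja4, Gja5, Bmx, Sema3g and Hey1) and 766 cells of other endothelium.

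Sinusoids are wide, thin-walled vessels that drain the bone marrow, and blood cells pass through their walls on the way to the circulation. Their endothelium is known for scavenger receptors, among them the hyaluronan receptor stabilin-2 encoded by Stab2 and its relative stabilin-1 encoded by Stab1, which take up waste molecules from the blood into clathrin-coated vesicles. Arteries of the marrow carry Notch and ephrin-B2 genes instead, and arterial and sinusoidal cells together supply ligands such as Cxcl12 and Kit ligand to blood stem cells.

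The bases upstream of 5 gene starts are shown because Stab2 defined the cells, Stab1, Flt4 and Mrc1 were higher in them than in both comparison gates, and Cxcl12 was lower than in both. Each line holds the 250 bases before the start, written along the gene's own strand, from RefSeq on build GRCm38.p6, a different build from that of the counts. The windows lie at chr10:87007943-87008192 (minus strand, Stab2), chr14:31168642-31168891 (minus, Stab1), chr11:49609429-49609678 (plus, Flt4), chr2:14229164-14229413 (plus, Mrc1) and chr6:117168285-117168534 (plus, Cxcl12). Capitals mark matches on either strand to 4 motifs. AGGAAG is the core bound by ETS factors such as Erg. AGATAA is bound by GATA factors. AGGTCA is a half-site of nuclear receptors, the family of Nr2f2. TGCTGA is a half-site of MAF factors.
Stab2: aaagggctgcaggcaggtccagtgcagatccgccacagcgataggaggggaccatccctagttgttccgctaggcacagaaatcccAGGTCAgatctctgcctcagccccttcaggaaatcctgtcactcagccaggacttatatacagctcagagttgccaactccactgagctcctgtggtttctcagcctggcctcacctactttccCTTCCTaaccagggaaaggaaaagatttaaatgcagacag
Stab1: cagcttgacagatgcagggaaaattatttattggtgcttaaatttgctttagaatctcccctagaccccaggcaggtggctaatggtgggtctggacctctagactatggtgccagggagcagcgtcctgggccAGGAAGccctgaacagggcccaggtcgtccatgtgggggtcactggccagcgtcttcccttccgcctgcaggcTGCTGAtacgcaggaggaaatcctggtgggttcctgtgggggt
Flt4: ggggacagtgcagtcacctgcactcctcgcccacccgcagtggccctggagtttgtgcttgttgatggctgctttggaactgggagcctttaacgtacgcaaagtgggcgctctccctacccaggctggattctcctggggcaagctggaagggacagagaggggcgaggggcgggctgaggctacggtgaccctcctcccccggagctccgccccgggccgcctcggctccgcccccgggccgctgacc
Mrc1: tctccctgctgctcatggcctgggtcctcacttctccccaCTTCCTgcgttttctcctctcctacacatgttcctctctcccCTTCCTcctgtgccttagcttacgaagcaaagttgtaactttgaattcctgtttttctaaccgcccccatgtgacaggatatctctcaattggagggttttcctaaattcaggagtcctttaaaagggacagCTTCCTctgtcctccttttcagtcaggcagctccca
Cxcl12: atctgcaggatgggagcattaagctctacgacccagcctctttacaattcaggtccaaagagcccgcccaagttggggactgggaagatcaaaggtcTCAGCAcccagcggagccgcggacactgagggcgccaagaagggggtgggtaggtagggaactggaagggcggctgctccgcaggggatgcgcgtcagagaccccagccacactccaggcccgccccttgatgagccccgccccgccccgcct
Upstream of Stab2 there was 1 nuclear receptor half-site and 1 ETS core, upstream of Stab1 1 ETS core and 1 MAF half-site, and upstream of Mrc1 3 ETS cores. The Cxcl12 window held 1 MAF half-site, and the Flt4 window held none of the 4 motifs. No match overlapped another. Among 32851 windows of the same length, 29.5% held the ETS core, 10.0% the GATA motif, 14.0% the nuclear receptor half-site and 16.1% the MAF half-site, so each motif is common and a match describes the letters only.

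Members made up 0.209% of the cells kept on day 10 (exact Clopper-Pearson 95% interval 0.130 to 0.320) and 0.400% on day 12 (0.309 to 0.509). Of the cells past the endothelial, Ptprc and cartilage parts of the rule they were 3.89% of 540 on day 10 and 13.9% of 467 on day 12. These intervals cover counting error only, and with 1 library per day no test between the days was possible. Stab2 was sparse: the median member had 1 UMI on day 10 and 2 on day 12, and the highest had 16 and 47. Just inside the limit, 11 of 21 and 24 of 65 members had exactly 1 Stab2 UMI. Outside the endothelial limit, 86 and 136 other cells with a Stab2 UMI had fewer than 3 pan-endothelial genes, and 41 and 80 of these had none. A further 8 and 31 with 3 or more were left out for a Ptprc UMI. Of all 94 and 170 cells with a Stab2 UMI that were not members, 79 and 129 had exactly 1. Of the 7 pan-endothelial genes, Egfl7 gave only 1 and 3 UMIs in all members, so the choice rested almost wholly on the others.

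Of the label's markers that the rule did not use, Stab1 was found in 15 of 21 and 56 of 65 members, and Nr2f2, a transcription factor of venous identity, in 16 and 58. Of the markers that the rule did use, Cdh5, the adhesion protein of endothelial junctions, was found in 19 and 65 members, and Plvap, a protein of endothelial openings, in 18 and 63. All of Stab1, Nr2f2 and Flt4 were found in 13 of 21 and 44 of 65 members, and none of the 3 in 4 and 1. Some genes known from liver sinusoids were near or at 0: Clec4g and Clec1b had no UMI in members, Oit3 had 0 and 1, and Dnase1l3 had 3 and 5. Other genes known from sinusoids were found, with Mrc1 in 10 of 21 and 27 of 65 members and Gpr182 in 5 and 18.

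Depth and RNA of other cells differed between the gates. The median member had 19101 UMIs on day 10 and 11109 on day 12, against 12049 and 7958 in the arterial gate and 5559 and 5665 in other endothelium. The members summed to 525291 and 927437 UMIs, and the 5 deepest cells held 51.0% and 20.5% of these. A blood or osteoclast marker (one of 8, among them C1qa, C1qb, Elane, Mpo, Cd79a, Pf4 and Ctsk) had a UMI in all 21 members of day 10 and in 48 of 65 on day 12. In the arterial gate 27 of 86 and 31 of 69 cells had no such UMI, and in other endothelium 88 of 433 and 145 of 333. The 8 erythroid markers summed to 27071 CPM (the UMIs of a gene per 1e6 UMIs of the sum) in members on day 10 and 7162 on day 12, against 90021 and 15304 over all cells kept. Osteoblast markers summed to 8949 and 8081 CPM in members, against 55942 and 29439 in other endothelium and 8055 and 28875 in the arterial gate. Markers of mural cells, the contractile cells around vessels, summed to 89.5 and 80.9 CPM in members, 1312 and 790 in the arterial gate and 775 and 329 in other endothelium. Of the 8 megakaryocyte markers 5 and 6 were at 0 in members. Days 10 and 12 shared 282 barcodes, against 72 to 126 in the other pairs of libraries, and no member's barcode was shared between them. The part of free RNA, doublets and depth in the results was not tested as such.

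Relative to the arterial gate, the members were higher in Stab1, Nr2f2, Flt4, Mrc1 and F8 and in 18 of 20 genes of cell division, and lower in Cxcl12, in Cav1, Cav2 and Cavin1 of the caveolae, and in 8 of 19 basement membrane and matrix genes. Counts were summed per library and gate and tested with edgeR's quasi-likelihood test with library as a term, and p-values were adjusted by Benjamini-Hochberg over 10057 genes. At an adjusted p under 0.05, 676 genes (6.72% of those tested) differed, 298 (2.96%) higher and 378 (3.76%) lower in members. A gate had 2 libraries, each from a different day, and whether these came from separate animals beyond their age is not stated. With the library term, the p-values rest on how far differences among all 3 gates of the fit vary between these 2 libraries. The estimate of this spread is shared by the gates and draws on other genes as well. Levels are CPM of 3' UMIs and are compared within a gene, with 95% Poisson intervals that cover counting error only.

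Stab1 stood at 221 CPM (interval 182 to 265) in members on day 10 and 369 (331 to 410) on day 12. In the arterial gate it stood at 92.9 and 114, and in other endothelium at 56.7 and 156. Both member sums were above all 4 sums of the other gates, and the log2 fold change against the arterial gate was 1.41 (SE 0.25, edgeR adjusted p = 0.0120).

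Mrc1, the mannose receptor, stood at 87.6 and 94.9 CPM in members, 7.74 and 18.8 in the arterial gate and 20.4 and 19.5 in other endothelium. Its log2 fold change against the arterial gate was 2.79 (SE 0.37, edgeR adjusted p = 0.00396). Fcgrt, the receptor that recycles albumin and antibodies, stood at 156 and 234 CPM in members, 68.1 and 80.2 in the arterial gate and 70.8 and 99.1 in other endothelium. These 3 were the higher ones among 12 tested scavenger and uptake receptors, whose median log2 fold change was -0.06 beside -0.01 over all genes tested. Scarb1, a receptor for lipoproteins, was the 1 lower, at 43.8 and 58.2 CPM in members and 119 and 102 in the arterial gate. Cd36, a fatty acid receptor, stood at 171 and 193 CPM in members and 238 and 202 in the arterial gate and did not pass the test.

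Of 24 endocytosis and lysosome genes tested, 2 were higher and 2 lower, with a median log2 fold change of -0.15. The higher ones were Dab2, a clathrin adaptor (626 and 651 CPM in members, 264 and 300 in the arterial gate), and Lgmn, a lysosomal protease (232 and 504 CPM, against 135 and 233). The lower ones were Cltb, a clathrin light chain, and Ctsz, another lysosomal protease.

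**Figure D1:**
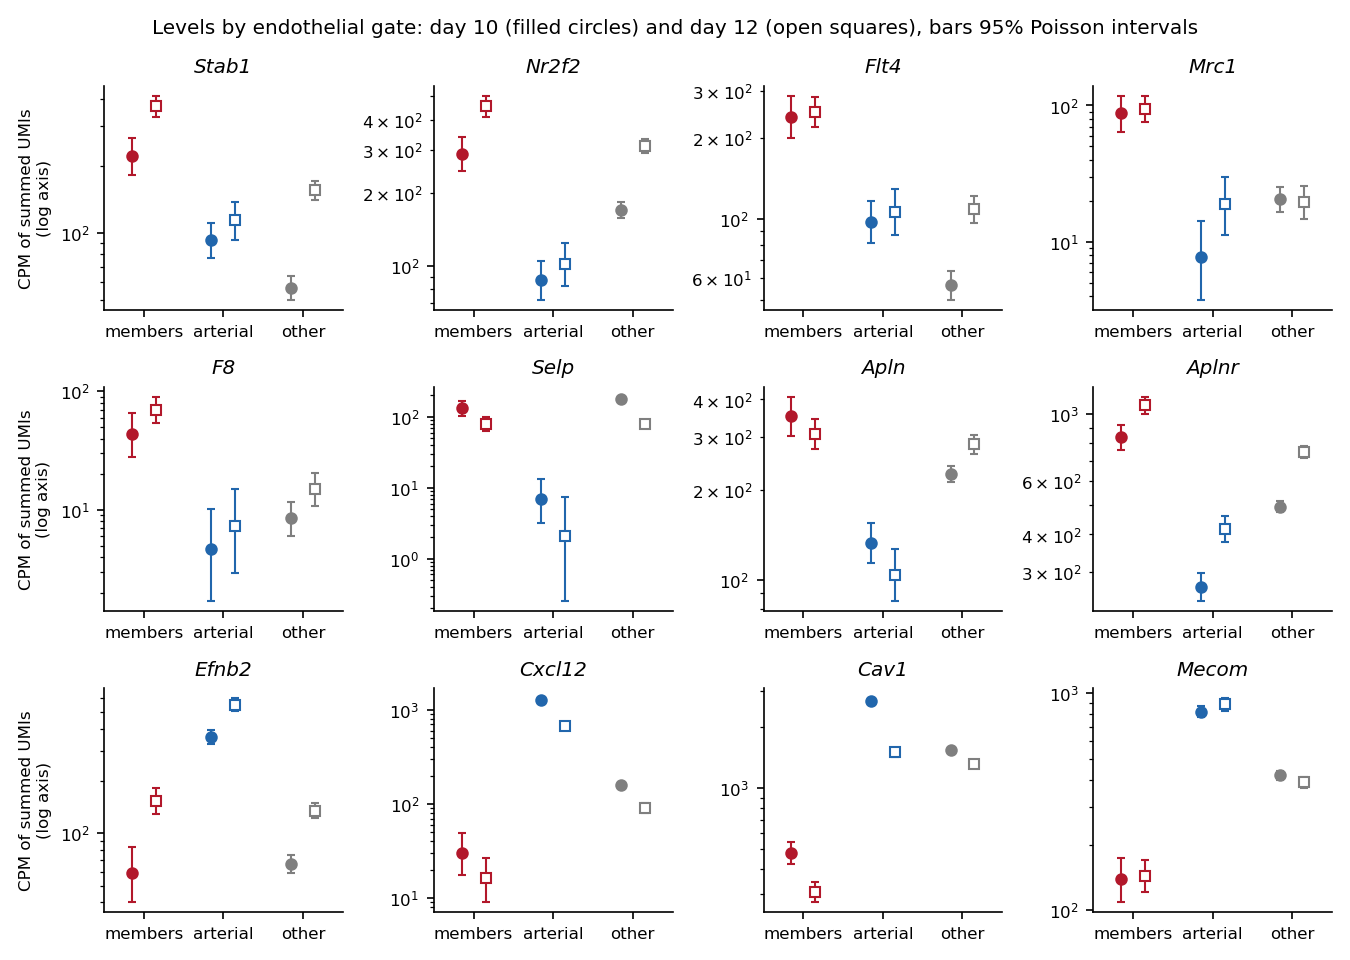
Level of 12 genes in CPM of summed UMIs (log axes, a different range in each panel) in members, the arterial gate and other endothelium, with day 10 as filled circles, day 12 as open squares and 95% Poisson intervals as bars. On each day Stab1, Nr2f2, Flt4, Mrc1 and F8 lie higher in members than in the other gates, Selp lies low in the arterial gate only, and Cxcl12, Cav1 and Mecom lie lowest in members.

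Of 16 venous and sinusoidal identity genes tested, 9 were higher and 2 lower in members than in the arterial gate, with a median log2 fold change of 1.33. Nr2f2 stood at 289 CPM (245 to 339) and 455 (413 to 501) in members, against 87.5 and 102 in the arterial gate and 170 and 313 in other endothelium. The arterial sums lay under every other sum, and the log2 fold change against that gate was 1.89 (SE 0.19, edgeR adjusted p = 0.00113). Flt4, the receptor for VEGF-C that is shared with lymphatic vessels, stood at 240 and 250 CPM in members, 97.6 and 106 in the arterial gate and 56.5 and 109 in other endothelium. Its log2 fold change against the arterial gate was 1.21 (SE 0.22, edgeR adjusted p = 0.0151).

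Aplnr, the apelin receptor, was higher (836 and 1065 CPM, against 269 and 418), as was Selp, the P-selectin that catches leukocytes (131 and 79.8 CPM, against 6.97 and 2.08). Ackr1, a chemokine-binding receptor of venules, had 31 UMIs in members and 2 in the arterial gate, a pooled ratio of 24.0 (counting interval 6.11 to 207). Of its 16 UMIs on day 10, 93.8% lay in 1 member, so that value rests on 1 cell. On day 10 alone the ratio was 19.7 (4.62 to 176), and on day 12 alone Ackr1 was at least 5.17-fold higher. Gpr182, Vcam1 and Adamts5 were also higher, and Tspan7 and Gata6 were lower. Adamts5, a matrix protease, had a log2 fold change of 1.88, and of 1.13 on day 12 alone and 2.93 on day 10 alone, and Gpr182 one of 3.84, and of 2.63 on day 10 alone. Ephb4, the venous receptor for ephrin-B2, stood at 103 and 148 CPM in members and 72.0 and 140 in the arterial gate and did not pass the test.

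Other ligand and receptor pairs differed as well. Apln, the apelin ligand, stood at 352 and 307 CPM in members and 133 and 104 in the arterial gate (log2 1.42, SE 0.19, edgeR adjusted p = 0.00381). Tek, the receptor Tie2, stood at 706 and 799 CPM in members and 334 and 296 in the arterial gate (log2 1.20, SE 0.21, edgeR adjusted p = 0.0130). Among 10 angiopoietin, Tie and apelin genes tested, Apln, Aplnr and Tek were the 3 higher and Ptprb, a phosphatase that acts on Tie2, the 1 lower.

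Among 14 haemostasis genes tested, 3 were higher in members and none lower, with a median log2 fold change of -0.33. F8, which encodes coagulation factor VIII, stood at 43.8 CPM (27.8 to 65.7) and 70.1 (54.1 to 89.3) in members, 4.65 and 7.29 in the arterial gate and 8.50 and 15.1 in other endothelium. The log2 fold change against the arterial gate was 3.19 (SE 0.37, edgeR adjusted p = 0.00251), and no interval of a member sum reached the level of another gate. Tfpi, the tissue factor pathway inhibitor, stood at 238 and 281 CPM in members and 119 and 85.4 in the arterial gate, and Ptgs1, a prostaglandin synthase, at 143 and 146 against 22.5 and 27.1. Vwf, the factor VIII carrier, stood at 55.2 and 22.6 CPM in members and 73.6 and 40.6 in the arterial gate and did not pass the test.

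Of 22 niche and angiocrine ligands tested, 1 was higher and 8 lower, with a median log2 fold change of -0.83. Of the lower ones, Cxcl12, Jag1, Jag2 and Dll4 are also arterial identity genes, and the arterial gate was chosen on other arterial genes. For these the count describes the gate and is no independent result. Cxcl12, the chemokine that holds stem cells in marrow, stood at 30.5 CPM (17.4 to 49.5) and 16.2 (9.05 to 26.7) in members, against 1269 and 683 in the arterial gate and 160 and 90.7 in other endothelium. Its log2 fold change against the arterial gate was -5.43 (SE 0.20, edgeR adjusted p = 1.33e-05). Igf1, a growth factor, was the higher one, at 261 and 262 CPM against 77.4 and 89.6. Tgfb2, another growth factor, was lower, at 30.5 and 23.7 CPM against 225 and 208. Kitl, the ligand of the stem cell receptor Kit, stood at 697 and 206 CPM in members and 639 and 497 in the arterial gate and did not pass the test.

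Genes of caveolae, tight junctions and the basement membrane were lower where they passed. Of 14 junction and caveola genes tested, 6 were lower and none higher, with a median of -0.57. Cav1, the main protein of caveolae, stood at 480 and 308 CPM in members, 2689 and 1501 in the arterial gate and 1542 and 1311 in other endothelium (log2 -2.44 against the arterial gate, SE 0.17, edgeR adjusted p = 3.94e-04). Cav2 and Cavin1 of the same structure were lower too, with Jam2 and Jam3, adhesion proteins of junctions, and Gja1. Of 19 basement membrane and matrix genes, 8 were lower and none higher. Col15a1 stood at 451 and 546 CPM against 1388 and 1105, and Sparcl1 at 430 and 328 against 1716 and 804.

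Among transcription factors, Mecom, a regulator of blood stem cells and endothelium, stood at 139 and 144 CPM in members, 821 and 887 in the arterial gate and 419 and 388 in other endothelium (log2 -2.63 against the arterial gate, SE 0.17, edgeR adjusted p = 3.23e-04). Of 23 endothelial transcription factors tested, Sox7, Lmo2, Klf4 and Tcf15 were lower and none higher, and Erg, Fli1, Tal1 and the other 16 did not pass. Of 13 hemogenic genes, which mark endothelium that forms blood, Lmo2, Mecom and Sox17 were lower and none higher. Sox17 is also an arterial identity gene, so its difference describes the arterial gate. Runx1 stood at 17.1 and 19.4 CPM in members and 40.3 and 68.8 in the arterial gate and did not pass the test (log2 -1.58, SE 0.42, edgeR adjusted p = 0.0646), but passed with only the 2 gates compared in the fit (-1.63, 0.0187). With cells that held a blood or osteoclast marker UMI left out, which left members of day 12 only, its direction turned (log2 1.21).

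Of 26 arterial identity genes tested, 20 were lower in members and none higher, with a median of -2.21. The arterial gate was chosen on 5 arterial genes, so this count describes the gate and is no independent result. Efnb2, ephrin-B2, stood at 59.0 and 154 CPM in members, 360 and 552 in the arterial gate and 66.8 and 135 in other endothelium.

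Of 20 cell division genes tested, 18 were higher in members and none lower, with a median of 1.70. Cdk1, the kinase that starts mitosis, stood at 156 and 249 CPM in members, 55.7 and 59.4 in the arterial gate and 107 and 126 in other endothelium. Mki67 stood at 129 and 229 CPM in members, 58.1 and 59.4 in the arterial gate and 130 and 165 in other endothelium. UMIs of both Mki67 and Top2a were found in 8 of 21 and 26 of 65 members. With each cell thinned to 2000 UMIs, an alternative chosen after seeing the data, 13 of the 20 genes were tested and 1 was higher, with a median of 1.25. With cells that held a blood or osteoclast marker UMI left out, the median was 0.68. That setting left 17 members of day 12 and none of day 10, so the members were 1 library and all values from it are given without a test.

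**Figure D2:**
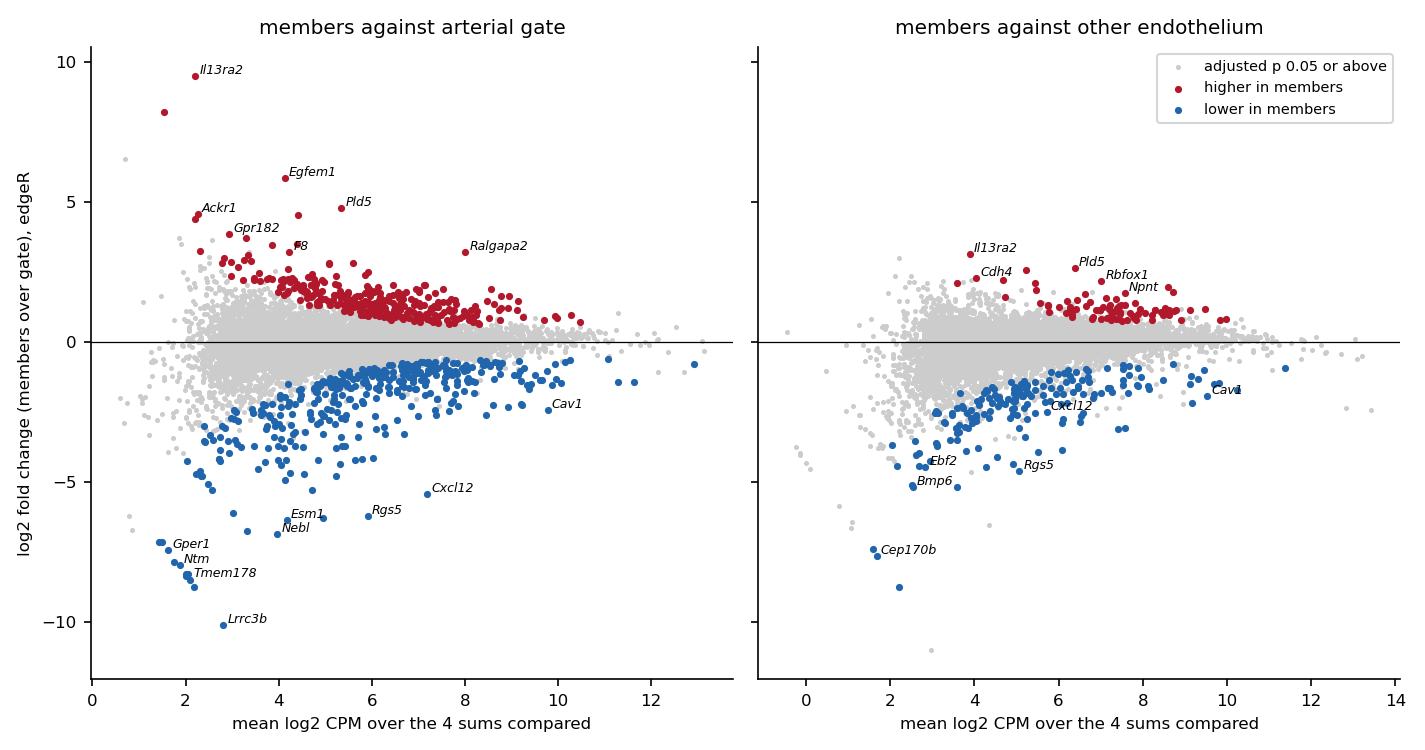
edgeR log2 fold change of each gene tested (members over the gate named in the panel title) against its mean log2 CPM, with genes higher in members in red, lower in blue and those at an adjusted p of 0.05 or above in grey. The names are those chosen by the rule on size, with Cxcl12, Cav1 and Mecom added, where space allows; the named points under -7 are genes with no UMI in members, whose fitted values are no bounds.

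By size, the 12 genes furthest up against the arterial gate were Il13ra2, Egfem1, Pld5, Ackr1, Selp, Gpr182, Susd4, Tll1, Bub1, Ralgapa2, F8 and Gpr183. Il13ra2, a decoy receptor for interleukin 13, had 13 and 81 UMIs in members and none in the arterial gate, at least 48.6-fold higher against a floor of 3 UMIs over both arterial sums. With the same floor the limit was 10.7-fold on day 10 alone and 27.9-fold on day 12 alone. Pld5, a phospholipase D relative, stood at 257 and 175 CPM in members and 8.52 and 6.25 in the arterial gate. Ralgapa2, a regulator of Ral GTPases, stood at 857 and 720 CPM against 79.7 and 87.5. Egfem1 stood at 24.7 and 398 CPM against 3.10 and 2.08, and its log2 fold change was 5.86. The values on a day alone, which are not fitted, were 6.84 on day 12 and 2.61 on day 10. On day 10 alone the value of Susd4 was 2.36 (3.71 in both) and that of Tll1 2.59 (3.48 in both).

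The 12 genes furthest down were Lrrc3b, Tmem178, Tox2, Olfr558, Lrrc36, Ntm, Car7, Gper1, Nebl, Bmp6, Esm1 and Rgs5. The first 8 had no UMI in members. Lrrc3b was at least 34.0-fold lower, against a floor of 3 UMIs over both member sums, and the other 7 at least 6.45-fold (Gper1) to 12.5-fold (Olfr558). On day 10 alone the limit was 7.73-fold for Lrrc3b and 2.44-fold (Car7) to 5.56-fold (Olfr558) for the other 7, and on day 12 alone it was 32.5-fold and 3.54-fold (Gper1) to 8.05-fold (Tmem178). Bmp6, a ligand that controls iron uptake, had 1 UMI in members and 183 in the arterial gate, a pooled ratio of 118 (counting interval 20.9 to 4689). That UMI lay in the day-12 library, where the ratio was 72.5 (12.6 to 2900), and on day 10 alone Bmp6 was at least 14.6-fold lower. Esm1, a marker of sprouting tips, had 3 UMIs in members and 467 in the arterial gate, a pooled ratio of 100 (34.2 to 489). All 3 lay in the day-12 library, where the ratio was 31.2 (10.4 to 154), and on day 10 alone Esm1 was at least 50.2-fold lower. Rgs5 marks mural cells and stood at 13.3 and 3.23 CPM in members and 645 and 374 in the arterial gate; 6 of 8 mural markers were lower in members, and their part in the other differences was not tested. For Rgs5 the log2 fold change was -6.21, and -5.53 on day 10 alone.

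In the 17 members of day 12 that held no blood or osteoclast marker UMI, the log2 fold change against the arterial cells left was 0.15 for Stab1, 0.13 for Flt4, 1.01 for Fcgrt, 0.62 for Dab2 and 1.61 for Vcam1. It was 1.96 for Nr2f2, 4.04 for Mrc1 and -5.25 for Cxcl12. Stab1 stood at 297 CPM in those members, and at 238 in the day-12 and 113 in the day-10 arterial cells left. With each cell thinned to 2000 UMIs, Stab1 (1.11, 0.0621), Mrc1 (1.99, 0.154), Fcgrt (0.86, 0.309), Scarb1 (-1.66, 0.131), Ptgs1 (1.58, 0.121) and Vcam1 (2.63, 0.118) did not pass in edgeR, while Nr2f2 (1.86, 0.00359) and Flt4 (1.40, 0.0424) did. Without the library term in the fit, Stab1 (1.47, 0.139), Flt4 (1.22, 0.0672), Scarb1 (-1.16, 0.112), Lgmn (0.96, 0.326), Tfpi (1.28, 0.0729) and Vcam1 (2.29, 0.187) did not pass in edgeR.

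Against other endothelium 262 genes passed (2.61% of 10057 tested): 86 were higher in members (0.855%) and 176 lower (1.75%). Stab1, Flt4, Mrc1 and F8 were higher in members here too, and Cxcl12, Cav1 and Mecom lower. The 766 cells of other endothelium had no Stab2 UMI and a lower median depth, so they can hold sinusoidal cells whose Stab2 was not caught. Without the library term none of the genes passed in edgeR in either direction (423 higher and 700 lower at an unadjusted p under 0.05), while DESeq2 with the term called 78 and 164.

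Among 12 scavenger and uptake receptors, Stab1 (log2 1.51, SE 0.23, edgeR adjusted p = 0.0178), Mrc1 (2.10, SE 0.31, 0.0166) and Fcgrt (1.14, SE 0.17, 0.0165) were higher and Scarb1 lower. The median of the 12 was -0.67 beside 0.00 over all genes tested. Dab2 and Lgmn were again the 2 higher of 24 endocytosis and lysosome genes, with none lower. F8 (log2 2.22, SE 0.30, edgeR adjusted p = 0.0130) and Tfpi were higher among 14 haemostasis genes. F5, coagulation factor V, was lower, with 2 UMIs in members and 221 in other endothelium (pooled ratio 22.7, counting interval 6.21 to 189).

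Of 16 venous and sinusoidal genes 2 were higher, among them Flt4 (log2 1.56, SE 0.21, edgeR adjusted p = 0.0134), and Tspan7 was lower. Nr2f2 did not pass here (log2 0.59, SE 0.17, edgeR adjusted p = 0.115), nor did Selp, which stood at 176 and 78.9 CPM in other endothelium, or Ackr1, at 49.6 and 44.2. Whether the folds against the 2 gates differed was not tested. With only the 2 gates compared in the fit, Nr2f2 had an edgeR adjusted p of 0.00950. With cells that held a blood or osteoclast marker UMI left out, which left members of day 12 only, the log2 fold change against other endothelium was 0.72 for Stab1, 0.45 for Flt4, 1.28 for Mrc1, 2.03 for F8, -1.84 for Cav1 and -1.52 for Mecom. Thinned to 2000 UMIs, Mrc1 (1.85, 0.154), Fcgrt (0.63, 0.449), Scarb1 (-1.69, 0.113), Dab2 (0.74, 0.0715) and Tfpi (1.32, 0.0515) did not pass in edgeR, while Stab1 (1.47, 0.00975) and Flt4 (1.55, 0.0131) did.

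Junction and caveola genes were lower in 5 of 14 cases, Cav1, Cav2, Cavin1, Jam2 and Jam3, with none higher. Cav1 had a log2 fold change of -1.95 (SE 0.17, edgeR adjusted p = 0.00224) and Cxcl12 of -2.50 (SE 0.20, 0.00224). For Jam2 the value was -1.35, and -1.96 on day 12 alone and -0.74 on day 10 alone. Of 13 hemogenic genes, Mecom (-1.57, SE 0.17, 0.00544) and Runx1 (-1.93, SE 0.40, 0.0456) were lower, with Runx1 at 79.0 and 54.9 CPM in other endothelium. Without cells holding a blood or osteoclast marker UMI, the log2 value in the day-12 members left was -0.44 for Runx1 and -2.05 for Cxcl12. Of 20 cell division genes none passed in edgeR in either direction, with a median of 0.56. Arterial identity genes were lower in 3 of 26 cases, Cxcr4, Ltbp4 and Cxcl12, and Efnb2 did not pass.

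Among the 12 furthest up by size were Il13ra2, Pld5, Igfbp2, Cdh4, F8, Rbfox1, Adh6b, Mrc1, Ralgapa2, Slc39a8 and Npnt. Slc39a8, a zinc and manganese importer, stood at 76.1 and 96.0 CPM in members and 16.3 and 31.3 in other endothelium. Npnt, the matrix protein nephronectin, stood at 356 and 354 CPM in members and 64.1 and 161 in other endothelium, and Igfbp2, an IGF-binding protein, at 93.3 and 101 against 7.58 and 26.5. On day 12 and day 10 alone, the log2 values were 1.11 and 2.33 for Npnt, 1.87 and 3.34 for Igfbp2, 1.90 and 3.29 for Pld5 and 1.20 and 3.16 for Rbfox1. Cdh4, a cadherin, had 1.57 on day 12 alone against 2.27 in both. Without cells holding a blood or osteoclast marker UMI, the day-12 members left had 1.23 for Pld5 and 0.75 for Rbfox1.

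The 12 furthest down were Cep170b, Ntm, Bmp6, Esm1, Adamts18, Rgs5, Ablim3, Ebf2, Cgref1, Cx3cl1, Lox and Chil3. Lox, which crosslinks collagen, stood at 5.71 and 7.55 CPM in members and 113 and 139 in other endothelium. Cep170b had no UMI in members and was at least 7.33-fold lower against the floor of 3 UMIs, and Ntm at least 6.24-fold. On day 10 and day 12 alone these limits were 3.02-fold and 3.65-fold for Cep170b and 2.45-fold and 3.42-fold for Ntm. Of the neutrophil markers 5 of 8 were lower in members, with sums of 352 and 116 CPM against 2211 and 1046, and Chil3 is a gene of myeloid cells. Rgs5 had a log2 fold change of -4.61, of -4.0 on day 12 alone, and of -2.74 in the day-12 members without a blood or osteoclast marker UMI. Of the mural markers 6 of 8 were lower, and the part of either cell type in the contrast was not tested. With cells holding 1% or more of Col1a1 and Col1a2 left out, chosen after seeing the data, 50 genes were higher, and 40 of these were among the 86.

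**Figure D3:**
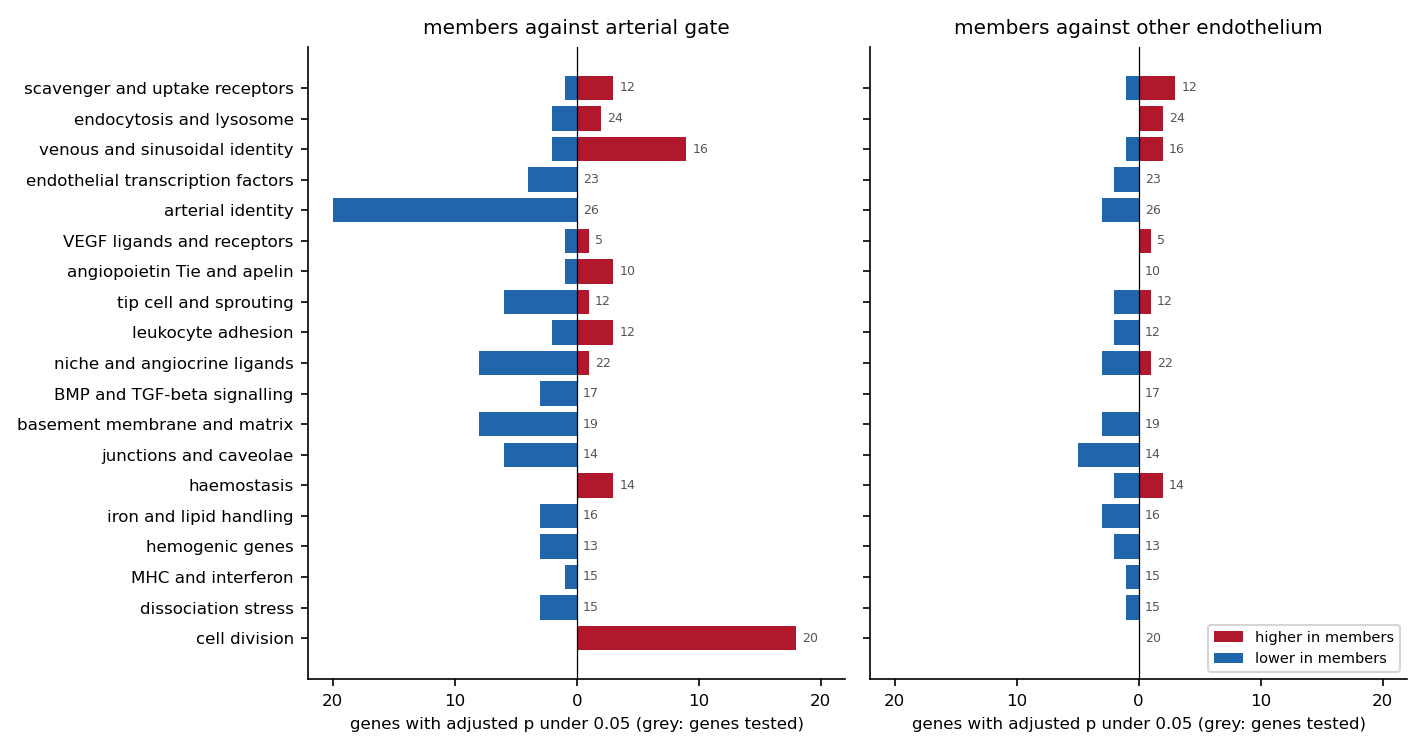
Genes of each list at an edgeR adjusted p under 0.05, higher in members to the right (red) and lower to the left (blue), with the number tested in grey, for the arterial gate and other endothelium. Against the arterial gate, 18 of 20 cell division genes were higher and 20 of 26 arterial genes lower; a gene may stand in more than 1 list.

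Within the members, levels of genes outside the rule were set beside the number of Stab2 UMIs of a cell. Stab2 was used by the rule and all groups come from the same 2 libraries, so no test was made. On day 12, Stab1 stood at 156 CPM in other endothelium, 282 in members with 1 Stab2 UMI, 373 with 2 to 4 and 425 with 5 or more. On day 10 the same order gave 56.7, 179, 241 and 265, with intervals of the 3 member groups that overlapped (128 to 244, 174 to 326 and 184 to 371). Even members with 1 Stab2 UMI, 11 cells of day 10 and 24 of day 12, lay above other endothelium in Stab1 on both days.

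Nr2f2 on day 12 was 313 CPM in other endothelium, 286 with 1 Stab2 UMI, 461 with 2 to 4 and 566 with 5 or more, so the members with 1 UMI did not stand apart. Flt4 on day 12 was 109, 241, 262 and 248. Mrc1 on day 12 was 19.5 CPM in other endothelium, 22.6 with 1 Stab2 UMI (8.29 to 49.1), 48.0 with 2 to 4 and 177 with 5 or more (137 to 224). Vcam1, an adhesion molecule for blood cells, was 25.1, 33.9, 25.8 and 241 CPM in the same order, so its day-12 level came from the 21 members with 5 Stab2 UMIs or more. Il13ra2 was 12.2, 45.2, 70.1 and 128 CPM on day 12. The median depth of these member groups was 8399, 10534.5 and 16548 UMIs, so depth moved with the Stab2 count and its part was not tested.

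**Figure D4:**
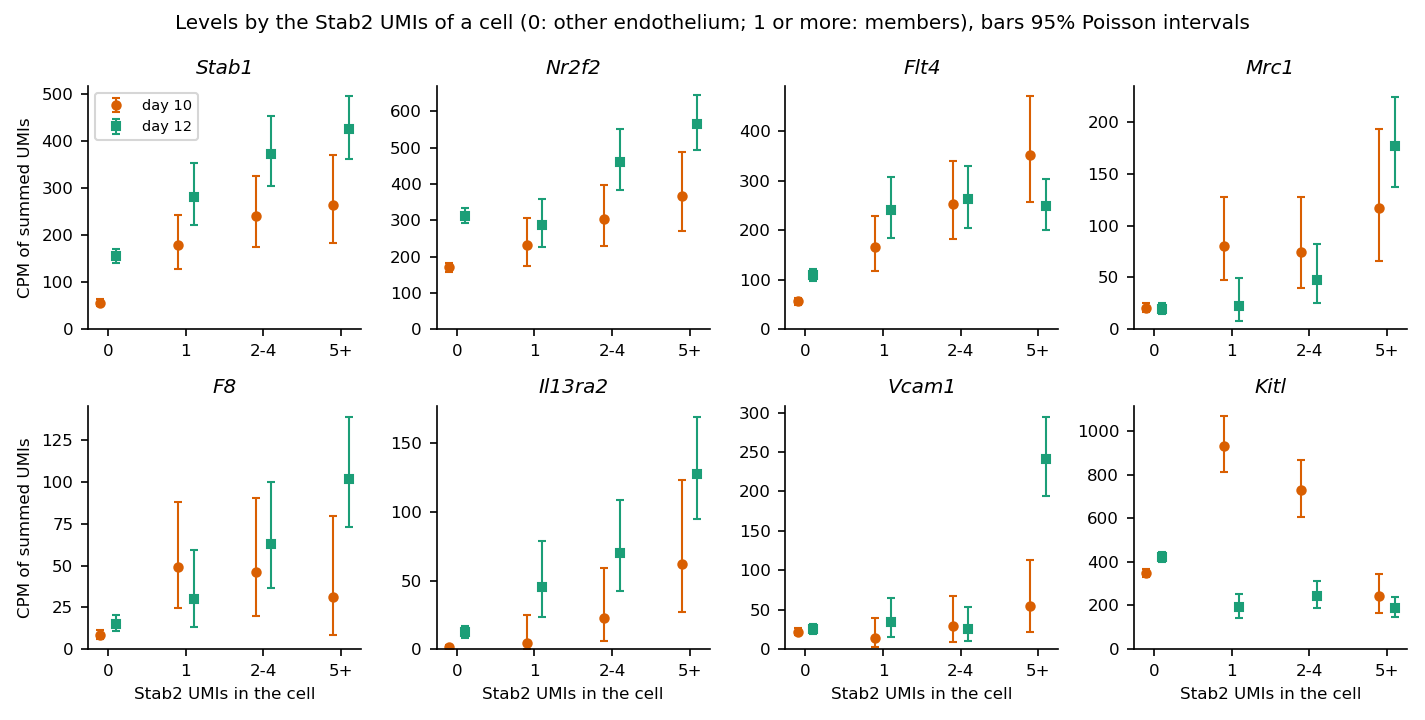
Level of 8 genes in CPM of summed UMIs (points with 95% Poisson intervals, axes from 0) by the number of Stab2 UMIs of a cell, where 0 is other endothelium and 1 or more are members, on day 10 and day 12. Stab1 lies above other endothelium in every member group, Vcam1 on day 12 is high only at 5 or more, and Kitl on day 10 is high at 1 to 4.

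At an equal depth of 2000 UMIs per cell, with 2 members of day 12 left out as shallower, a Stab1 UMI was found in 33.3% of members on day 10 (71.4% before thinning) and 42.9% on day 12 (86.2%). In the arterial gate the thinned shares were 8.43% and 24.2%, in other endothelium 7.56% and 21.4%, and in B-lineage cells, which should lack the gene, 1.73% and 1.35%. For Nr2f2 the thinned shares were 42.9% and 50.8% of members and 1.04% and 0.520% of B-lineage cells. They were 13.3% and 12.1% in the arterial gate and 21.3% and 35.2% in other endothelium. The B-lineage cells had a median of 9083 and 4691 UMIs before thinning. Cxcl12 had a thinned share of 1.59% in members on day 12, under the 2.91% of B-lineage cells, so that share is read as background. On day 10 it was 9.52% (2 of 21 members, exact interval 1.17 to 30.4), against 2.66% of B-lineage cells, a share that lies within the interval. Mrc1 in members (14.3% and 17.5%) lay above its share in B-lineage cells (2.77% and 2.50%), with an exact interval of 3.05 to 36.3 on day 10. In the arterial gate the Mrc1 share was 3.61% and 1.52%, and in other endothelium 7.28% and 3.56%. Both day-10 shares of these gates lie within the day-10 member interval. On day 12 the member interval was 9.05 to 29.1.

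Members were not uniform. On day 10, 1 member held 43 of the 44 Prox1 UMIs and 70 of the 71 Lyve1 UMIs of all members, with 1 Stab2 UMI. Prox1 is the defining factor of lymphatic vessels and Lyve1 their hyaluronan receptor, and this cell met the rule. On day 12 the members had 4 Prox1 UMIs and no Lyve1 UMI. UMIs of at least 2 of the 5 arterial gate genes were found in 1 of 21 and 8 of 65 members. Hemoglobin made up 1% or more of the UMIs in 9 of 21 and 3 of 65 members, and Col1a1 with Col1a2 in 7 and 9. Selp had UMIs in 6 and 24 members, Il13ra2 in 7 and 23, and Pld5 in 13 and 38. With cells holding a Prox1 UMI left out, 19 and 61 members remained and Stab1 stood at 222 and 368 CPM.

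On day 12 the members stood above day 10 in Vcam1, Egfem1, Igfbp3 and Hpgd and below it in Kitl and Atf3, each as values of 1 library per day without a test. Atf3 was lower on day 12 in the other gates too. Among 8153 genes with at least 20 UMIs over both sums, 1412 (17.3%) were 1.5-fold or more higher on day 12 and 932 (11.4%) lower, with 1 UMI added to each sum and a median log2 ratio of 0.10. In sums over cells, fewer cells with a gene and less RNA per cell cannot be told apart.

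Among the uptake receptors, Stab1 was 221 and 369 CPM (log2 ratio 0.73), and Mrc1 87.6 and 94.9 (0.10). Nr2f2 was 289 and 455 CPM (0.65) and Flt4 240 and 250 (0.06). Vcam1 went from 28.6 to 119 CPM (log2 ratio 1.97, counting interval 1.21 to 2.83), while Selp went from 131 to 79.8 and Sele, E-selectin, from 59.0 to 16.2. In the arterial gate Vcam1 went from 5.42 to 26.0 CPM and in other endothelium from 22.1 to 25.1. Selp on day 10 had 56.5% of its UMIs in 1 member. F8 went from 43.8 to 70.1 CPM, with intervals that overlapped.

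Kitl went from 697 CPM (627 to 772) to 206 (178 to 237) in members, a log2 ratio of -1.75. In the arterial gate it went from 639 to 497 and in other endothelium from 347 to 421, and whether the gates differed was not tested. One member held 26.2% of the Kitl UMIs of day 10, and 18 of 21 members of that day had one, against 43 of 65 on day 12. In the 4 and 21 members with 5 or more Stab2 UMIs it stood at 242 CPM (164 to 343) and 189 (149 to 238), with intervals that overlapped.

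Of 13 iron and lipid handling genes measured, 7 were higher on day 12 and 1 lower, with a median log2 ratio of 0.70. Over the same genes the median was 0.36 in the arterial gate and -0.03 in other endothelium. Fabp4, a fatty acid carrier of vessels, went from 2680 to 4806 CPM, and Hmox1, the enzyme that breaks down heme, from 47.6 to 93.8. Lpl, Gpihbp1 and Abca1 of lipid transport were also among the 7, with Tfrc and Ftl1 of iron handling, and Apoe was the lower one.

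Of 13 dissociation stress genes 8 were lower on day 12 and 1 higher, with a median of -1.0 in members and of -1.13 over the same genes in the arterial gate. Fos went from 1447 to 526 CPM in members and from 2792 to 646 in the arterial gate. Of 8 cartilage markers 7 were higher on day 12, while their sum over all cells kept went from 3344 to 11621 CPM, and of 8 erythroid markers the 4 hemoglobin genes were lower, while the sum over all cells went from 90021 to 15304. The part of free RNA in these was not tested.

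**Figure D5:**
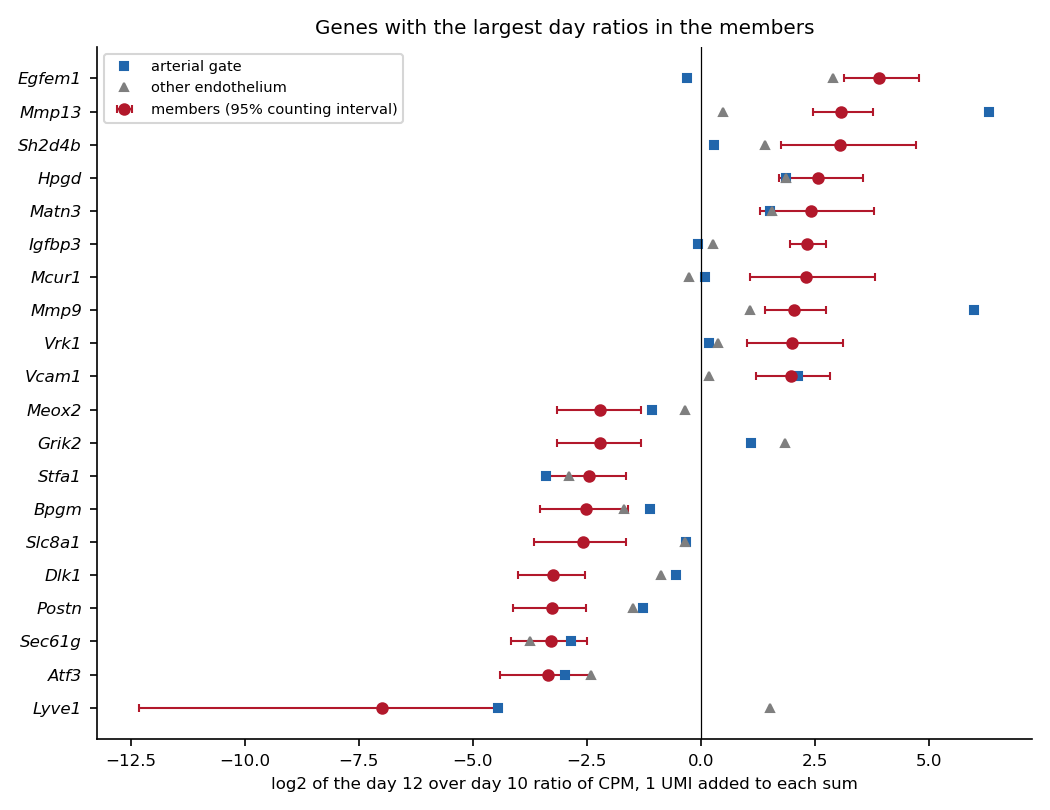
Log2 ratio of day 12 to day 10 for the 20 genes chosen by size in members (red circles with 95% counting intervals), with the same ratio in the arterial gate (blue squares) and other endothelium (grey triangles). Igfbp3 at 2.34 and Dlk1 at -3.24 in members lie away from both other gates, while Atf3 and Sec61g lie low in every gate. Of the day-10 UMIs in members, 1 member held 52.5% for Igfbp3 and 71.7% for Dlk1.

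By size, the 10 genes furthest up on day 12 were Egfem1, Mmp13, Sh2d4b, Hpgd, Matn3, Igfbp3, Mcur1, Mmp9, Vrk1 and Vcam1. Mmp13 and Mmp9, matrix proteases of bone and osteoclasts, had 82.2% and 83.2% of their day-12 UMIs in 1 member, and stood at 2235 and 1372 CPM in the arterial gate that day. Egfem1, at 13 and 369 UMIs, was found in 5 of 21 and 23 of 65 members, with 13.3% of the day-12 UMIs in 1 member. Igfbp3, an IGF-binding protein, went from 112 to 578 CPM in members, 1444 to 1371 in the arterial gate and 439 to 527 in other endothelium. Of its day-10 UMIs in members, 52.5% lay in 1 member. Hpgd, which breaks down prostaglandins, went from 20.9 to 134 CPM and was found in 6 and 29 members.

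The 10 furthest down on day 12 were Lyve1, Atf3, Sec61g, Postn, Dlk1, Slc8a1, Bpgm, Stfa1, Grik2 and Meox2. The value of Lyve1 rested on the 1 member described above. Postn and Dlk1 had 68.5% and 71.7% of their day-10 UMIs in 1 member, whereas Grik2, a glutamate receptor subunit, was found in 8 of 21 members of day 10 and 8 of 65 of day 12.

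The day-8 library held 9 cells that met the rule, of 11464 kept, and the day-7 library none of 11309, which allows a share of up to 0.0265% by the floor of 3 counts (exact upper bound 0.0326%). Only 59 of the day-7 cells passed the endothelial, Ptprc and cartilage parts of the rule. The 9 cells summed to 75605 UMIs and held Stab1 at 145 CPM (72.6 to 260), Flt4 at 145 and Mrc1 at 92.6. Other endothelium of day 8 held Stab1 at 47.6, Flt4 at 68.3 and Mrc1 at 13.8. Nr2f2 stood at 119 CPM in the 9 cells (54.4 to 226) and at 120 in that endothelium. Ephb4 had no UMI in the 9 cells (interval up to 48.8 CPM) and stood at 43.7 in that endothelium. The day-8 arterial gate held Stab1 at 97.0 CPM, Flt4 at 139 and Mrc1 at 13.9. Stab1 and Mrc1 were not particular to endothelium: cells with UMIs of Ptprc and of at least 2 C1q genes, a macrophage gate, held Stab1 at 284 and 167 CPM and Mrc1 at 1454 and 638 on days 10 and 12, but Stab2 at 2.20 and 1.08.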

How the data were processed

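The authors deposited counts of UMIs per gene and cell barcode for each library, as whole numbers that were not normalized. The submitters' processing notes name build GRCm39; for the counting program, no name was found in the labels or headers. The digestion protocol in the labels also names bowel cancer tissue, so whether its steps apply to these libraries is unknown. Cells with at least 500 genes, 1000 UMIs and at most 15% mitochondrial UMIs were kept, and doublets were not called. The members and the 30 gene lists were chosen with earlier results of these data known.

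Counts of each gate were summed per library, giving 6 sums, and fitted in 1 model with gate and library terms (edgeR 4.0.16, TMM scaling, filterByExpr, quasi-likelihood test, Benjamini-Hochberg adjustment). Log2 fold changes on a day alone could not be fitted and are differences in log2 CPM with a small count added. On simulated counts for 9792 genes, the test called 85.0% of 4-fold and 45.0% of 2-fold changes against the arterial gate, 95.0% and 55.0% against other endothelium, and 0.0521% and 0.0626% of unchanged genes. The simulated counts held no difference between days, and gates differed only in the changed genes, which were drawn from genes with many UMIs. These shares therefore need not hold for the real counts. Genes named by size were the 12 highest and 12 lowest passing genes per contrast with the same direction in both libraries and at least 30 UMIs in the higher gate, and for the days the 10 highest and 10 lowest ratios with at least 50 UMIs. Genes of the gates, hemoglobin, mitochondrial, ribosomal protein, X-inactivation and Y-linked genes and unnamed gene models were left out of that choice. List members and markers were named besides. Some genes that the rule or the lists hold are not reported here. Intervals and floors (3 UMIs for a count of 0) cover counting error only. Alternatives were DESeq2 1.42.0, other scaling, no filter, no library term, other gates, cells left out and thinning.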

Additional observations from a re-analysis of the deposited data

Results flagged for a closer look

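The day-8 library, which lies outside the comparisons, held 9 cells that met the rule for the sinusoidal cells, of 286 past its endothelial, Ptprc and cartilage parts. They drew attention because they met that rule before day 10, in a library that no comparison used. Their Stab2 and pan-endothelial UMIs follow from the rule.

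The day-7 library held 90 cells with a Stab2 UMI, and all of them lay outside the endothelial gate. Of these, 86 had 1 Stab2 UMI, and 73 had 3% or more of their UMIs from the cartilage genes, a share of cartilage RNA that 84.1% of all cells kept on day 7 reached. The source of these UMIs was not tested.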

How the results depend on the processing

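The gates were compared within each library through the library term, and the labels number no replicates for any further pairing. Asking for 2 Stab2 UMIs gave members as 0.0997% of cells on day 10 and 0.252% on day 12, thinning to 3000 UMIs gave 0.0915% on day 10, and ignoring Ptprc gave 0.584% on day 12. Against the arterial gate, genes higher and lower were 472 and 729 with no filter on low counts, 80 and 116 without the library term, 83 and 160 without cells holding a blood or osteoclast marker UMI, and 63 and 130 with cells thinned to 2000 UMIs. Against other endothelium they were 245 and 702 with no filter, 0 and 0 without the library term (edgeR, 423 and 700 at an unadjusted p under 0.05, DESeq2 with the term 78 and 164), 396 and 640 with only the 2 gates compared, 228 and 425 with an arterial gate of 1 gene, 41 and 103 without blood marker cells, and 44 and 65 thinned; without cells rich in Col1a1 and Col1a2, 50 were higher. For the days, genes higher on day 12 were 796 with 5 UMIs added, 791 with at least 50 UMIs and 2119 by the mean over cells, and genes lower were 423 with at least 50 UMIs. Without blood marker cells, directions turned for Lyve1 (-8.61) and Runx1 (1.21) against the arterial gate and for Tgfb2 (0.32) against other endothelium, among others. Day ratios turned for Cav1 (0.53), Jam2 (0.02), Mmp13 (-0.05) and Mmp9 (-0.85) with 2 Stab2 UMIs asked for, for Mmp9 (-0.57) without Prox1 cells, and for Susd4 (-0.00) by the mean over cells. The Prox1, Col1a1 and 2000-UMI alternatives were chosen after seeing the data, and the cause of these shifts was not tested. Leaving out blood marker cells left 1 library of members (day 12), assumed to vary like the other gates, so its counts are no test of the members, and no day ratio was had. The few day-10 members limit the precision of every value.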
